A study of Homo sapiens with 8 samples.

Results

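The response of T24 cells to transfection of miR-140-5p was read from 1 of the 8 two-colour Agilent arrays of the series, the array whose labels give miR-140-5p as the transfected microRNA (miRNA) and T24 as the line. T24 is a human bladder cancer cell line. Cy5-labelled RNA of the transfected cells and Cy3-labelled RNA of mock cells, which the labels list as not transfected, were hybridised together to 60-base probes. The other 7 arrays, read as background for the same probes, held miR-140-3p in the same line, both strands of miR-532 (5p and 3p, each on its own array) in the kidney cancer line 786-O, and treatments of prostate cancer lines, namely miR-199-3p given to C4-2, and either miR-125b-1-3p or the small molecule bisamide, for 24 h and 48 h, given to PC3. Each had its own mock in Cy3. The time from transfection to harvest was not given in the sources used here for T24. There was 1 array for each treatment, no swap of the dyes and no control transfected with another small RNA in the mock channel, so no test was made. On this array alone an effect of miR-140-5p, an effect of transfection as such and a difference between cultures cannot be told apart.

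miRNAs are short RNAs that guide the Argonaute proteins to messenger RNAs. Pairing of the seed, bases 2 to 8 of the miRNA, with a matching site lowers the translation and the amount of the target, most often from sites in its untranslated region after the coding sequence. The miR-140 hairpin lies in an intron of WWP2 and is best known from cartilage, where miR-140-5p is abundant. In tumours it has been described as an inhibitor of growth and migration. The mature strands of the hairpin are shown with their seeds in capitals, because the seeds decide which sites each strand can match (RefSeq sequences, GRCh38.p14, chromosome 16, plus strand, 69933103 to 69933124 and 69933142 to 69933162).
miR-140-5p: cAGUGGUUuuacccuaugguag
miR-140-3p: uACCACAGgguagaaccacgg
The seeds differ, so each strand has its own set of sites. The site that pairs with the miR-140-5p seed reads AACCACT in the letters of the probes, which carry the sense strand.

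The labelled line was checked against its markers in the mock channel. Of 19 urothelial and bladder cancer markers, 7 were well above background in both channels, with a summed raw signal over the list of 10343 in mock and 15760 in transfected RNA. KRT18, a keratin of simple epithelia, had a raw mock signal of 4673, KRT7 of 438, KRT8 of 272 and the hyaluronan receptor CD44 of 4526. The defining urothelial markers KRT5, KRT20, GATA3, TP63, UPK1B, UPK2 and UPK3A were not well above background, with raw mock signals of at most 22.1. Of the same list, PPARG had a raw mock signal of 123, and the uroplakin UPK1A and FOXA1 were dim, at 30.7 and 27.4. PAX8 and PAX2, transcription factors of the kidney lineage, were measured at 390 and 551, while they were at 22.3 to 32.7 and 18.7 to 20.7 in the PC3 and C4-2 mocks and at 235 to 239 and 112 to 124 in the 786-O mocks. THY1, which fibroblasts also carry, was at 1216, while the fibroblast genes DCN, LUM, COL3A1 and FAP were at 19.0 to 21.3 and not well above background. Of the markers of other cell types, 3 of 8 prostate, 5 of 8 kidney, 4 of 7 leukocyte, 2 of 6 endothelial and 2 of 7 fibroblast genes were measured. The raw signal summed over each list in mock and transfected RNA was 315 and 411 for prostate, 1353 and 1950 for kidney, 288 and 394 for leukocyte, 130 and 120 for endothelial and 1399 and 2043 for fibroblast genes. The defining genes KLK3 of prostate and PECAM1 of endothelium were not measured. The mesenchymal genes VIM and ZEB1 were also measured, with raw mock signals of 9119 and 287, while FN1 was not. Epithelial genes were split. CDH1, CLDN3, CLDN7, ESRP1 and GRHL2 were not well above background in the mock. CLDN1, DSP, TJP1 and EPCAM were measured, with raw mock signals of 1241, 751, 280 and 146. OCLN, ESRP2 and CLDN4 were also measured but dimmer, at 63.0, 28.2 and 27.3. Most urothelial markers were thus not measured, and T24 is used here as the labelled name. The Cy3 signals correlated across 17073 genes with those of the miR-140-3p array, also labelled T24 mock, with Pearson's r of 0.999, and with those of the other 6 arrays with r of 0.869 to 0.921. Genes are not independent replicates. Whether both T24 arrays carried the same mock extract is not stated in the labels.

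Of 43317 genes on the array, 17624 were well above background in both channels and are called measured here. A further 145 genes were above background in mock RNA alone and 3087 in transfected RNA alone. On the other arrays these counts ran from 56 to 457 in mock RNA alone and from 2262 to 4073 in treated RNA alone. The miR-140-3p array had 95 and 3556. More genes were thus above background in Cy5 alone on every array, whatever the treatment, and the cause was not tested. Saturated spots were not found. Raw signals had a median of 23.3 in Cy3 and 20.4 in Cy5. Repeats existed within the array for 300 probes, each with 10 spots, and their median SD was 0.041 on the log2 scale. This SD covers the spread within the array and not the spread between cultures. All log2 ratios below are transfected over mock after loess normalization. Over the measured genes they had a median of 0.0097 and an SD of 0.24. Raw Cy5 signals of bright genes ran above their Cy3 signals on this array, which loess took off, so raw signals are given beside the same probe's signals on the miR-140-3p array.

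The collagen chain COL4A2 (4.44-fold lower), the lysosomal membrane protein SCARB2 (3.95-fold) and the hydrolase NCEH1 (3.91-fold) were the lowest genes with miR-140-5p, and the growth factor CSF3 (6.48-fold higher) was the highest. These folds were taken after loess and with an offset of 50 added to both channels, which draws a difference toward 0. In simulated data it drew lower values in more than higher ones. A made log2 change of −2 came back at a median of −0.98, and a change of 2 at 1.69. The sizes and counts of lower and higher genes are therefore not on an equal footing. The log2 ratio was under −1.5, the size that the study used for miRNA-transfected cells, in 15 genes (0.0851% of those measured) and over 1.5 in 10 genes (0.0567%). Past 1.0 were 57 lower genes (0.323%) and 21 higher genes (0.119%). Just inside the lower threshold were COL18A1 at −1.58 and IGFBP7 at −1.57, and just outside it were CD44 at −1.48 and CERCAM at −1.45. Just inside the upper threshold were PXDN and PMP22, both at 1.56, and just outside it were NPTX1 at 1.48 and PODXL at 1.42. The counts and the split between lower and higher genes moved with the processing, to 62 lower and 23 higher with plain background subtraction, 54 and 22 with a normexp offset of 0, 101 and 33 with the ratio of the scanner software, and 1 and 77 with median centring in place of loess. In that last setting the median of the measured genes moved to 0.35, and with this shift taken off 6 genes were lower and 19 higher.

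**Figure D1:**
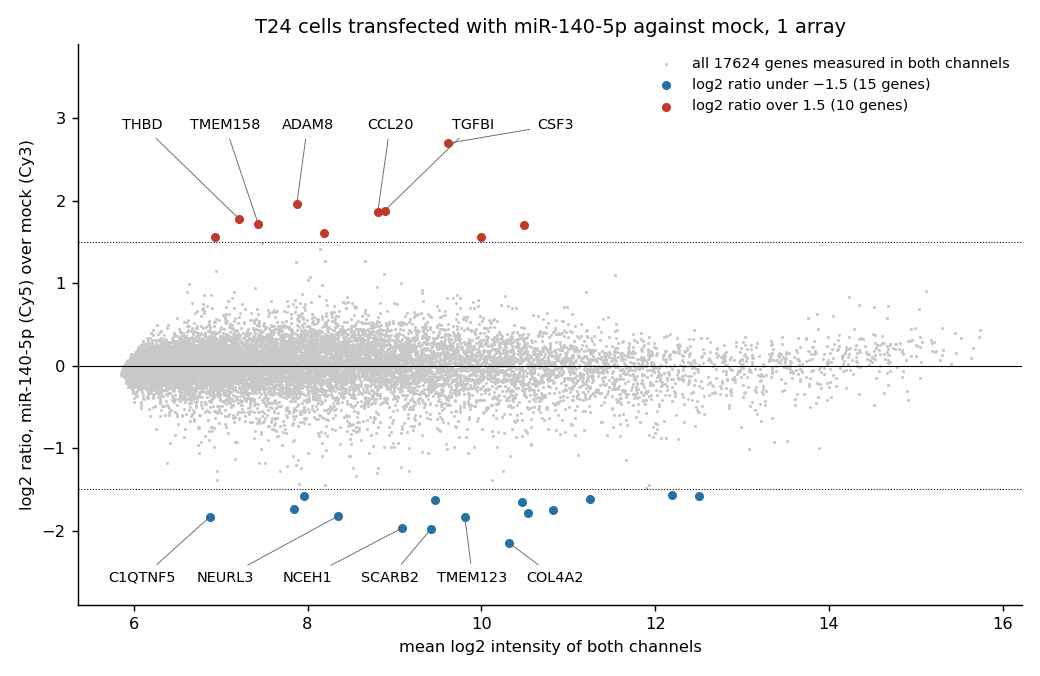
Log2 ratio of miR-140-5p over mock RNA (vertical axis) against the mean log2 intensity of both channels (horizontal axis) for the 17624 measured genes of 1 array. Blue points are the 15 genes under −1.5 and red points the 10 genes over 1.5, with the 6 farthest on each side named, from COL4A2 at −2.15 to CSF3 at 2.70; dotted lines mark 1.5 in size.

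COL4A2, the alpha-2 chain of collagen IV in basement membranes, was the lowest gene (probe on chromosome 13, 111165261 to 111165320, GRCh37, as are all probe positions below). Its raw signal was 2013 in mock and 762 in transfected RNA, against 2073 and 5124 on the miR-140-3p array. The log2 ratio was −2.15, or 4.44-fold lower, against 0.31 with miR-140-3p and −0.17 to 1.19 on the 6 arrays of the other lines. The mock signals of both T24 arrays were close, and the difference lay in Cy5. COL18A1, whose collagen XVIII is the source of endostatin, read 6952 and 4765, against 6678 and 11048 with miR-140-3p (chromosome 21, 46933558 to 46933617). Its log2 ratio was −1.58, below the other lines at −0.23 to 0.95. IGFBP7, a secreted protein that binds insulin-like growth factors, was at −1.57 here and at −0.74 with miR-140-3p. Its 2 other measured probes gave −1.53 and −0.74, so the size of the difference depended on the probe.

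SCARB2, a membrane protein of the lysosome, was the gene next to COL4A2 (chromosome 4, 77079916 to 77079975). It read 1037 in mock and 400 in transfected RNA, against 1140 and 1908 with miR-140-3p, for a log2 ratio of −1.98 against −0.15. The 6 other arrays lay between −0.49 and 0.52. NCEH1, a hydrolase of cholesterol esters, read 826 and 309, against 837 and 1889 with miR-140-3p (chromosome 3, 172348576 to 172348635). Its log2 ratio was −1.97. It was as low as −1.30 on 1 other array, miR-532-5p in 786-O. SLC48A1, a haem transporter of endosomes and lysosomes, was at −1.65, and its other measured probe was at −1.39.

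TMEM123, a mucin-like membrane protein, was at −1.83 (chromosome 11, 102267486 to 102267545), with raw signals of 1278 in mock and 577 in transfected RNA. CMTM6, a membrane protein known for keeping the immune checkpoint ligand PD-L1 at the surface, was at −1.74 (chromosome 3, 32523276 to 32523335), with raw signals of 318 and 114. On the miR-140-3p array both were near 0, at 0.10 and 0.06. ZMYM6NB, named TMEM35B in RefSeq, was at −1.58. Past the threshold of 1.0 but not of 1.5 was CD44 at −1.48, but its other measured probe was at 0.15, so no single direction held for this gene. The probes of CERCAM were both below 0 but differed in size, at −1.45 and −0.14. DCBLD2, a membrane receptor, was at −1.45, with its other probes at −1.07 and −0.92.

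TPM1, a tropomyosin that lies along actin filaments, read 2437 in mock and 1285 in transfected RNA, against 2469 and 4482 with miR-140-3p (chromosome 15, 63363361 to 63363420). Its log2 ratio was −1.75, and its 2 other measured probes gave −1.65 and −1.60, so all measured probes of TPM1 were past 1.5. SEPT2, named SEPTIN2 in RefSeq, encodes a GTPase that forms filaments and is among the reported targets of miR-140-5p. It read 939 and 473, against 985 and 1804 with miR-140-3p (chromosome 2, 242293007 to 242293066). The log2 ratio of this probe was −1.63, but the 2 other measured probes gave −0.37 and −0.01. BASP1, a protein of the inner side of the plasma membrane, was at −1.62. PLK2, a kinase of the polo family, was at −1.79 here and at −1.28 with miR-532-5p in 786-O.

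NEURL3 was also low on the miR-140-3p array, and C1QTNF5 on all arrays. NEURL3, of a family of ubiquitin ligases, was at −1.82 here and at −1.04 with miR-140-3p, while it was at 0.01 to 0.26 on the arrays of the other lines. C1QTNF5 was at −1.84 here, −1.68 with miR-140-3p, and −1.93 to −0.68 on the other arrays, so its probe was low on all 8 arrays whatever the treatment. Treated RNA was in Cy5 on every array, and a dye effect of the probe would have the same sign on each; its part was not tested. ACTL8 was measured in mock RNA alone and was at least 3.40-fold lower. This bound sets the bright channel against the weakest signals above background. The fitted value of ACTL8 was −1.96, against −1.42 with miR-140-3p and −1.80 to −1.03 on the other arrays.

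CSF3, the granulocyte colony-stimulating factor, was the highest gene (chromosome 17, 38173710 to 38173769). Its raw signal was 209 in mock and 2529 in transfected RNA, against 179 and 170 on the miR-140-3p array. The log2 ratio was 2.70, or 6.48-fold higher, against −0.61 with miR-140-3p and −0.07 to 0.09 on the other lines' arrays. Its other measured probe gave 1.48, in the same direction. CCL20, a chemokine that draws lymphocytes and dendritic cells through the receptor CCR6, read 155 and 1024, against 155 and 125 with miR-140-3p (chromosome 2, 228681100 to 228681836). Its log2 ratio was 1.86, against −0.75 with miR-140-3p. Each of these genes thus lay above 0 with miR-140-5p and below 0 with miR-140-3p, a difference that was not tested.

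Of the other higher genes, ADAM8, a membrane metalloprotease, read 65.5 in mock and 517 in transfected RNA, for a log2 ratio of 1.96 (chromosome 10, 135075992 to 135076051). Its other measured probe was at 0.07, so the difference rested on 1 probe. TGFBI, a matrix protein induced by TGF-beta, read 166 and 1097, against 178 and 310 with miR-140-3p, and was at 1.88 (chromosome 5, 135399343 to 135399402). THBD, the thrombomodulin of the cell surface, was at 1.78, with raw signals of 37.9 and 280. PXDN, a peroxidase that cross-links collagen IV, was at 1.56, and its other probe was at 1.05. TMEM158 was at 1.72, SPNS2, a transporter of sphingosine-1-phosphate, at 1.70, the transcription factor FOXQ1 at 1.60 and the myelin protein PMP22 at 1.56. On the miR-140-3p array the 10 higher genes lay between −0.75 and 0.44. MMP1, a collagenase, was well above background in transfected RNA alone, with raw signals of 25.6 and 132 and a fitted log2 ratio of 1.22. On the miR-140-3p array MMP1 had a log2 ratio of −0.09, and bisamide for 24 h in PC3 gave 1.02.

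The same probes on all 8 arrays show how far these genes stood from the background of the series. Of the 15 genes under −1.5, 14 were below all other 7 arrays, against 17.1% of measured genes, the exception being C1QTNF5. Of the 10 genes over 1.5, 10 were above all other 7 arrays, against 14.8% of measured genes. Of the genes past 1.0 these counts were 56 of 57 and 20 of 21. The upper exception was TNFRSF10D, a decoy receptor of TRAIL, at 1.27 here and up to 1.36 elsewhere. A gene chosen for a large ratio on 1 array tends to lie outside the range of others, so these counts describe the genes and support nothing. Of the genes past 1.0, 24 had other measured probes, and 30 of those 32 probes had the same sign as the probe that represented the gene. All other probes had the same sign in 17 of 19 lower and 5 of 5 higher genes, the exceptions being CD44 and HMGA2. The sizes of these probes differed, from −1.65 and −1.60 for TPM1 to −0.01 for 1 of SEPT2 and 0.07 for ADAM8. The share of same-sign probes over all measured genes is not given here, so these counts describe the genes alone.

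**Figure D2:**
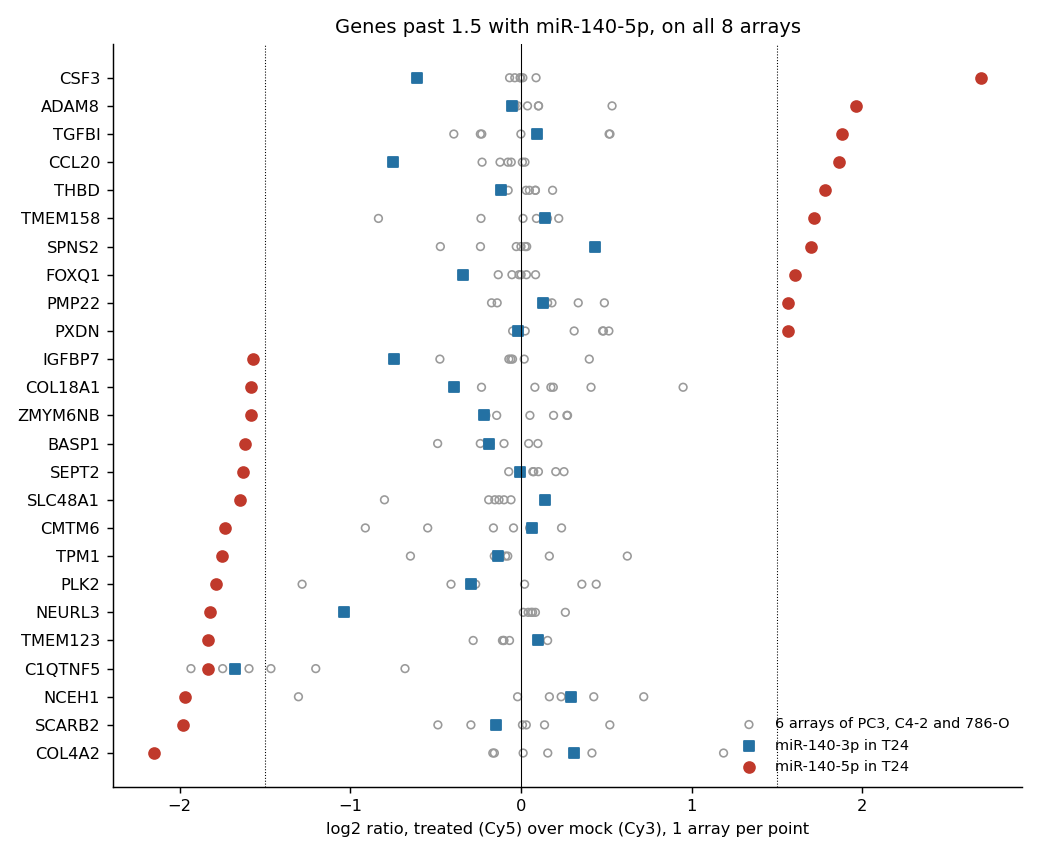
Log2 ratio of treated over mock RNA (horizontal axis) of the 25 genes past 1.5 in size with miR-140-5p, 1 gene per row. Red circles are miR-140-5p in T24, blue squares miR-140-3p in T24 and open grey circles the 6 arrays of PC3, C4-2 and 786-O; apart from C1QTNF5, every red circle lies outside the other points of its row.

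To ask whether genes with a site for the transfected strand were lower, the 60 bases of each probe were searched for the 7 letters AACCACT, which pair with bases 2 to 8 of miR-140-5p. A probe covers a small part of a transcript, so a gene without a match in the probe may hold a site elsewhere, and a match is a description, not a proven site. The probes were read as the sense strand, on which the polyadenylation signal AATAAA was found in 7.85% of probes against 3.60% on the opposite strand. The 7 letters were found in 254 of 58201 probes (0.436%) and in the probes of 72 of 17624 measured genes (0.409%). The windows of the lowest 4 genes with a match are shown with the pairing letters in capitals, 8 where an A follows (30 bases of each probe, sense strand).
PPP1CB: tttcttcAACCACTAccttctacattggtt
SMARCC2: caaggttctattAACCACTtctaagggtac
DOK4: acagaccttcttgtaaatAACCACTAtttg
SNHG16: tggatgagacttaacttaaAACCACTtaca
PPP1CB and DOK4 hold the match of 8 letters.

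The 72 genes with the match had a median log2 ratio of −0.086, against 0.0097 over all measured genes, a difference of −0.095. This difference was −0.20 with an offset of 0 or plain subtraction, −0.21 with the ratio of the scanner software, −0.16 with median centring and −0.015 over all 188 genes with the match when dim probes were kept. Below 0 were 72.2% of them, against 47.5% of measured genes. Their quartiles were −0.21 and 0.010, against −0.11 and 0.12. Under −0.5 were 4 of the 72 (5.56%), against 509 of all (2.89%), and over 0.5 none of the 72, against 307 of all (1.74%). Below all other 7 arrays were 25 of the 72, or 34.7%, against 17.1%. The 16 genes with the match of 8 letters had a median of −0.063, the 56 genes with 7 letters and no A after them of −0.10, the 34 genes with the match to bases 2 to 7 and an A of −0.092, the 163 genes with a match to bases 2 to 7 alone of −0.0093, and the 17355 genes without any of these of 0.011. The same 7 letters read on the opposite strand, also found in 72 genes, had a median of −0.0050. By median the genes with 8 letters thus lay nearer to 0 than those with 7, in small groups of 16 and 56. Under −0.5 the shares ran the other way, with 2 of the 16 (12.5%) and 2 of the 56 (3.57%).

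**Figure D3:**
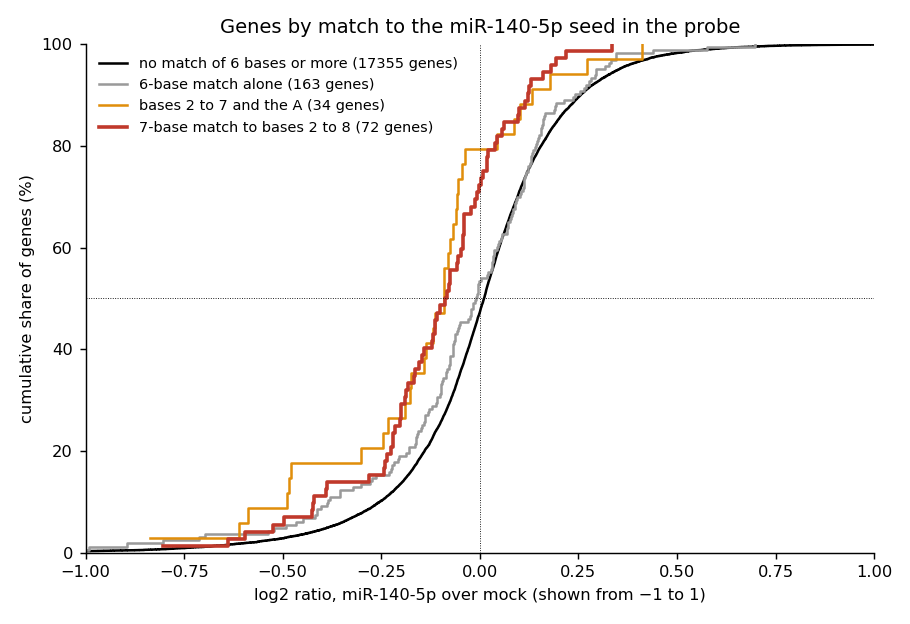
Cumulative share of genes in percent (vertical axis) at or below each log2 ratio of miR-140-5p over mock (horizontal axis), by the match to the miR-140-5p seed in the probe. The curve of the 72 genes with the 7-base match lies to the left of the 17355 genes without a match, with medians of −0.086 and 0.011.

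The seed match was then read on the other arrays and with other seeds. On the other 7 arrays the difference between genes with the miR-140-5p match and all genes lay between −0.033, with miR-140-3p, and 0.031, with miR-532-3p. On the miR-140-5p array, the genes with the seed match of another transfected miRNA differed from all genes by −0.0014 for miR-140-3p (116 genes), −0.013 for miR-532-5p, −0.014 for miR-532-3p, −0.038 for miR-199-3p and −0.066 for miR-125b-1-3p, of which 6 genes were measured. The value of −0.095 was thus the lowest of the 8 arrays for this seed and the lowest of the 6 seeds on this array.

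**Figure D4:**
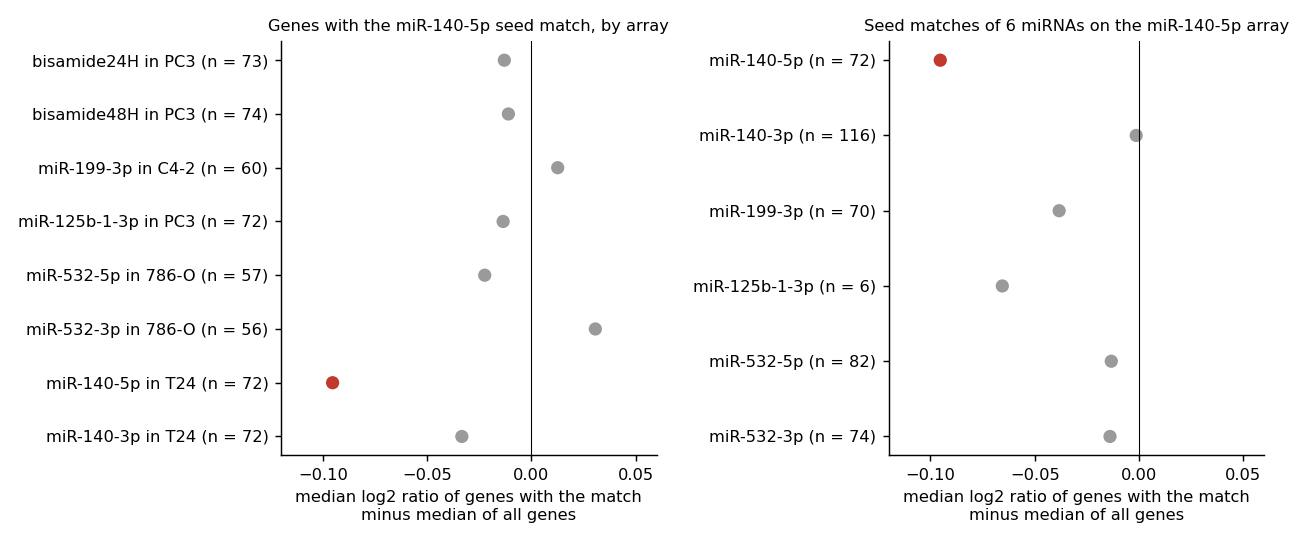
Median log2 ratio of genes with a 7-base seed match in the probe minus the median of all measured genes (horizontal axes). The left panel shows the miR-140-5p match on each of the 8 arrays and the right panel the matches of 6 miRNAs on the miR-140-5p array, with the number of genes; the red point in both is miR-140-5p on its own array, at −0.095.

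PPP1CB, a catalytic subunit of protein phosphatase 1, had the lowest ratio of the 72 genes, −0.80 (chromosome 2, 29025683 to 29025742). It read 373 in mock and 315 in transfected RNA, against 372 and 544 with miR-140-3p, and its other measured probe was at −0.31. SMARCC2, a subunit of the BAF chromatin remodelling complex, was at −0.64, with its other probe at −0.37 (chromosome 12, 56557133 to 56557192). DOK4, a docking protein of receptor tyrosine kinases, was at −0.59 (chromosome 16, 57506134 to 57506193), but it was also as low as −0.72 on 1 array of another line. SNHG16, a long noncoding RNA that hosts small nucleolar RNAs, was at −0.53 (chromosome 17, 74561359 to 74561418). Also among the lowest were R3HDM1 at −0.50, the growth factor VEGFB at −0.43, FAM214A at −0.42, ATP6V1E2 at −0.39, the cholesterol exporter ABCA1 at −0.39, HSPA13 at −0.28 and the co-chaperone DNAJA2 at −0.24. The other measured probe of ATP6V1E2 was at 0.14, in the other direction. HSPA13 and DNAJA2 were not below all other arrays. None of the 57 genes under −1.0 held the 7 letters in any of their probes, against 0.409% of measured genes, and 1 (1.75%) held a match of 6 letters or more, against 1.53%. Both counts were near the share over all genes.

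Genes that have been described as targets of miR-140-5p were read as a list. Of 26, 19 were measured, with a median of −0.10, and 6 were under −0.5 (31.6%, against 2.89% of measured genes) and none over 0.5. Besides SEPT2, the lowest were FZD6, a Wnt receptor, at −1.28 and RALA, a GTPase of the RAS family, at −1.28. FZD6 read 237 in mock and 119 in transfected RNA, against 235 and 512 with miR-140-3p. RALA read 136 and 54.4, against 135 and 243 (chromosome 7, 39747399 to 39747458). Both were below all other 7 arrays. The kinase YES1 was at −0.61, MMD at −0.57 and the laminin chain LAMC1 at −0.56. Of the targets best known from cartilage, HDAC4 was at 0.14, DNPEP at 0.01 and SMAD3 at −0.10, while ADAMTS5, IGFBP5 and FGF9 were not measured. VEGFA was the highest at 0.48. The median of these genes on the other arrays was −0.08 to 0.18.

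The machinery that makes and uses miRNAs had a median of 0.23 over 21 measured genes, and 28.6% of them were below 0, against 47.5% of all. AGO2, the Argonaute that cuts RNA, was the highest at 0.72, with raw signals of 202 in mock and 549 in transfected RNA, against 220 and 431 with miR-140-3p. TNRC6C, a partner of the Argonautes, was at 0.55, but it was at 0.62 with miR-140-3p. DICER1 was at −0.11, DROSHA at −0.04 and the export factor XPO5 at −0.26. On the other arrays the median of the list was 0.02 to 0.14.

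The basement membrane list held 16 measured genes of 25, with a median of −0.28, while it was between 0.14 and 0.42 on the other 7 arrays. Collagen IV chains differed in size, with COL4A2 at −2.15, COL4A1 at −0.36, COL4A4 at −0.26 and COL4A5 at −0.13. Of the laminin chains, LAMC1 was at −0.56, LAMA3 at −0.48 and LAMB1 at −0.41, while LAMB3 was at 0.44. LAMC1 had a ratio of 0.60 on the miR-140-3p array and of 0.18 to 0.86 on those of the other lines, so of the 8 arrays it was below 0 on this one alone. Under −0.5 were 3 genes of the list (18.8%, against 2.89% of measured genes), and over 0.5 was 1 (6.25%, against 1.74%). Other collagens and collagen enzymes had a median of 0.03 over 14 measured genes, with the lysyl hydroxylase PLOD1 at −0.79 and the lysyl oxidase LOX at 0.75, both outside the range of the other arrays. COL1A1, COL1A2 and COL3A1 were not measured in both channels. Integrins, the receptors of this matrix, had a median of 0.19 over 13 genes, with ITGA3 at −0.58, ITGAV at −0.55 and ITGA6 at 0.57.

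Lysosomal genes had a median of −0.12 over 49 measured members, and 67.3% were below 0, against 47.5% of all. With median centring in place of loess the difference from all genes, −0.13, changed sign to 0.033. Under −0.5 were 5 members (10.2%, against 2.89% of measured genes). After SCARB2 these were the sulfatase ARSA at −0.77, the protease CTSB at −0.70, the sialidase NEU1 at −0.68 and the sphingolipid activator precursor PSAP at −0.57. IDS, a sulfatase, was at 0.74 here and at −1.29 with miR-140-3p, and the protease CTSC was at 0.62. The 2 other measured probes of CTSC were at −0.10 and 0.095, so its higher value rested on 1 probe. LAMP1 and LAMP2, the main membrane proteins of lysosomes, were at −0.32 and −0.12. Genes of cholesterol synthesis and uptake had a median of −0.03 over 31 members, with NCEH1 far below the next, FDFT1 at −0.52, and INSIG1 the highest at 0.53. With miR-199-3p in C4-2, INSIG1 was at 0.95.

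Cytokines and chemokines lay on both sides of 0. Over 21 measured genes the median was 0.07, a difference from all genes that changed sign, to −0.030, without the filter on dim probes. Here CSF3, CCL20, CXCL1 at 0.84 and IL11 at 0.59 were over 0.5, and IL18 at −0.78 and IL6 at −0.77 were under −0.5. CXCL1 read 9298 in mock and 39312 in transfected RNA, against 13167 and 17944 with miR-140-3p, and its other probe was at 0.73. IL6 was at −1.28 with miR-140-3p and IL11 at 0.67 with miR-125b-1-3p in PC3, so both lay within the range of the other arrays. CXCL8 was at 0.07 and CXCL2 at 0.35. Genes of the NF-kappaB response, which controls many of these cytokines, had a median of −0.13 over 23 members. TNFAIP2 was at −0.73, PTX3 at −0.72, the inhibitor NFKBIE at −0.70 and BIRC3 at −0.56, and no member was over 0.5. With miR-532-5p in 786-O, TNFAIP2 was lower still, at −1.09. The median of this list was −0.26 with miR-140-3p and −0.18 with miR-532-5p.

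TGF-beta pathway genes had a median of −0.06 over 36 members. The receptors TGFBR1 and TGFBR2 were at −0.04 and 0.05, and SMAD2, SMAD3 and SMAD4 lay between −0.14 and −0.10. Response genes differed in direction, with TGFBI at 1.88, INHBA at 0.52 and PMEPA1 at 0.50, of which INHBA and PMEPA1 lay within the range of the other arrays, while the inhibitors of differentiation ID2, ID1 and ID3, known as targets of bone morphogenetic proteins, were at −1.09, −0.88 and −0.79. The other measured probe of ID2 was at −1.03 and that of PMEPA1 at 0.085. CYR61, named CCN1 in RefSeq, was at −0.77 here and at 0.53 with miR-140-3p. Metalloproteases and their inhibitors had a median of 0.05 over 17 members, a difference from all genes that changed sign, to −0.017 with median centring and −0.049 after the median of the other lines' arrays was taken off. Over 0.5 were ADAM8, ADAM19 at 0.59 and MMP14 at 0.52, and under −0.5 were the inhibitor RECK at −0.61 and ADAM15 at −0.58. With miR-532-5p in 786-O, ADAM19 was higher, at 1.14. RECK had a second measured probe at 0.10.

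Interferon-stimulated genes had the lowest median of the 15 lists, −0.34 over 26 measured genes, and 92.3% were below 0. Under −0.5 were 9 of them (34.6%), against 2.89% of measured genes, and none was over 0.5. IFIT1, which binds foreign RNA, read 143 in mock and 50.1 in transfected RNA, against 152 and 77.6 with miR-140-3p. Its log2 ratio was −1.38 here and −1.18 there. ISG15, a ubiquitin-like modifier, was at −1.28 here and −1.05 there, IFI6 at −0.93 and −0.66, and MX1 at −0.76 and −0.70. The list's median was −0.24 with miR-140-3p, −0.17 and −0.15 with the miR-532 strands and −0.016 to 0.10 on the other 4 arrays. These genes were thus low on both T24 arrays, and some of them also in 786-O. With miR-532-3p and miR-532-5p there, ISG15 was at −1.18 and −0.53 and IFIT1 at −0.60 and −0.64. IFI6 and MX1 lay between −0.12 and −0.05 on those arrays. IFIT5 at 0.02 and ISG20 at 0.45 were the members above 0.

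Genes of S phase and mitosis had a median of −0.21 over 45 measured members, with MCM7 at −0.59 and PCNA at −0.55 as the lowest. The highest were the mitotic genes PLK1 at 0.36 and UBE2C at 0.28. The ratio of MCM7 changed sign against all genes, to 0.066, with median centring. The list ranged from −0.50 to 0.07 on the other arrays, and the difference from all genes changed sign, to 0.12 with median centring and to 0.11 after the median of the other lines' arrays was taken off. Growth factor receptors had a median of −0.07 over 21 members, with DDR1 at −0.69, ROR1 at −0.68 and EGFR at −0.68. The 2 other measured probes of EGFR were at −0.06 and −0.04, and those of ROR1 at −0.72 and 0.04. PDGFRB was at −1.18, but at −0.89 to −0.37 on all other arrays, so its probe was low whatever the treatment. Epithelial and mesenchymal markers had a median of −0.08 over 13 members. TJP1, the tight junction scaffold, was at −1.24, against 0.11 with miR-140-3p and −0.02 to 0.77 on the other lines' arrays, the tight junction protein CLDN1 at −0.67 and the smooth muscle actin ACTA2 at −0.62. VIM was at −0.16 and ZEB1 at 0.18, while CDH1 and FN1 were not measured. In RNA of whole cultures, fewer cells with a gene and less of it per cell cannot be told apart.

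**Figure D5:**
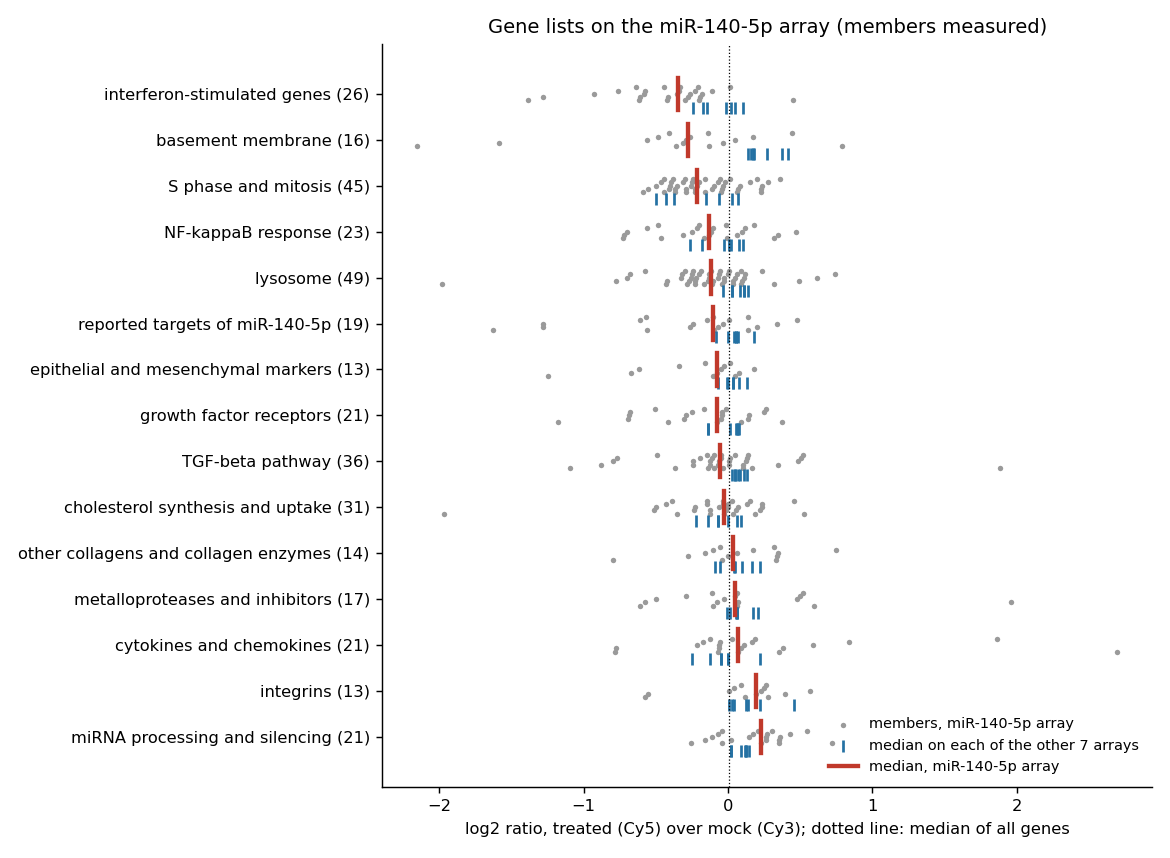
Log2 ratio of treated over mock RNA (horizontal axis) for 15 gene lists, with the number of measured members in brackets. Grey points are the members on the miR-140-5p array, red bars their median there, blue ticks the list's median on each of the other 7 arrays, and the dotted line the median of all measured genes; medians run from −0.34 (interferon-stimulated genes) to 0.23 (miRNA processing and silencing).

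Of the kidney-lineage genes, whose mock signals are given above with the markers, the largest ratios differed in sign. LHX1, a homeobox gene, was at 1.25, with raw signals of 95.4 in mock and 395 in transfected RNA, PAX2 was at −0.94 and PAX8 at 0.18. On the miR-140-3p array LHX1 had a log2 ratio of 0.33, and the arrays of the other lines gave −0.01 to 0.87. Other genes between 1.0 and 1.5 were NPTX1, a pentraxin, at 1.48 here and 0.78 with miR-140-3p, PODXL, a sialomucin, at 1.42 but up to 1.13 on 1 other array, and RIMKLA at 1.27. On the lower side CHCHD3, a mitochondrial protein, was at −1.44, and KIAA1551, named RESF1 in RefSeq, was at −1.39 here and −0.71 with miR-140-3p.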

How the data were processed

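Per the labels, cells were treated with Lipofectamine RNAiMAX, RNA was taken with Trizol and amplified with a low-input two-colour kit. Per the file headers, Agilent Feature Extraction 11.5.1.1 gave the deposited intensity of each spot and of its local background in each channel, not normalized, with flags of 0 or 1 for outlier, saturated and dim spots and probe positions in GRCh37. The deposited log10 ratio was made by the same software after background subtraction and dye normalization. The deposited series table held the same log10 ratio, with a largest difference of 0 over 62976 features.

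From the deposited intensities, log2 ratios of Cy5 over Cy3 were computed with limma 3.58.1 in R 4.3.3 (normexp, offset 50, then loess within the array). Control spots and 129 outlier spots were left out, spots of a probe were averaged, and of several probes of a gene the one brightest on average over the 8 arrays (mean log2 intensity) stood for it. The offset draws ratios of dim genes toward 0. By accession, 21902 of 43317 representing probes matched the RefSeq gene table. Exon positions were not analysed here, and some genes that the rule names are not reported here. The number of arrays limits the precision, and p-values were not computed. The method was tested on simulated data. With the offset of 50 made changes came back smaller, and lower ones more so than higher ones. With an offset of 0 they came back at about full size.

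The genes, the 15 lists and the comparisons were chosen with earlier results of these data known. Named were genes past 1.5 with a symbol, up to 5 more in each direction past 1.0, up to 4 members of each list in each direction past 0.5 and members needed for a list's description, the 12 lowest genes with a seed match, bounds over 1.0 and cell type markers. Alternatives were 3 other background corrections, median centring, the scanner's ratio, the series table, 2 other filters, the mean over probes, the median of other arrays taken off, another threshold and other seed definitions.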

Additional observations from a re-analysis of the deposited data

How the results depend on the processing

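No paired analysis was possible because no treatment had a second array. The difference between genes with the miR-140-5p match and all genes, −0.095, kept its sign in every setting that read the match on the sense strand. It was −0.20 with plain subtraction and with an offset of 0, −0.16 with median centring and −0.015 without a filter on dim probes. With the ratio of the scanner software and with the deposited series table, which are the same values, it was −0.21. The match on the opposite strand, run as a control, gave −0.015. The value without the filter was thus about the size of the control, and its sign carries no weight. The counts of 15 lower and 10 higher genes became 62 and 23 with plain subtraction, 54 and 22 with an offset of 0, 101 and 33 with the scanner and series table ratios, 1 and 77 with median centring, and 57 and 21 at a threshold of 1.0. Without background correction 26 genes were lower. With median centring over the measured genes, an alternative chosen after seeing the data, they were 6 and 19, and the seed difference was −0.16. Lower genes made up 60% of all past 1.5 in the main setting, 72.9% with plain subtraction, 71.1% with an offset of 0, 75.4% with the scanner's ratio, 1.28% with median centring and 24% with median centring over the measured genes.

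Set against all genes, with both forms of median centring the lysosome list went to 0.033, metalloproteases to −0.017, S phase and mitosis to 0.12, and MCM7 to 0.066. Minus the median of the other lines' arrays, metalloproteases went to −0.049 and S phase and mitosis to 0.11, and minus the median of the other 7 arrays to −0.024 and 0.00571. Without a filter on dim probes cytokines went to −0.030. The other values of lists and named genes kept their sign, except for lists within 0.041 of the all-gene median, whose sign was not counted. Raising the offset draws dim genes toward 0 and a lower threshold admits more genes by construction, and for the other changes the cause was not tested. Genes not well above background in both channels were left out of the list medians, apart from the settings with other filters. This limits the lists to their brighter members.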
